A study of Mus musculus with 3 samples.

Results

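The genes described here are 40 genes of protein folding and of the unfolded protein response, chosen by gene symbol for their known roles, of 23348 genes in the table. They comprised 14 chaperones and folding enzymes of the endoplasmic reticulum (ER), 4 genes of ER-associated degradation, 5 sensors and transcription factors, 5 targets of the PERK and ATF4 branch, 9 cytosolic chaperones, 2 mitochondrial chaperones and the heat shock factor Hsf1. Each had exactly 1 line in the table, and none lay on the X or Y chromosome. The 40 were chosen with earlier results of these data known. The RNA came from DN1 thymocytes, sorted as Lin-, CD44+ and CD25-, a gate that holds the earliest thymic progenitors together with other cells lacking the lineage markers. The mice were 19 days old and of 129sv/C3H background. The 3 genotypes were gl/gl mice carrying the transgene CD2-Ostm1 (cells of 3 mice pooled), gl/gl mice, which are the osteopetrotic grey-lethal mutant lacking Ostm1 (3 mice pooled), and wild type mice (2 mice pooled). The name of the transgene points to CD2 control, which is active in lymphoid cells, so cells outside that lineage may lack it. There was 1 library per genotype, which leaves every difference below without a replicate check, a test or a p-value.

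Levels are in FPKM, which counts fragments relative to transcript length and library size. Ostm1 stood at 5.35 FPKM in CD2-Ostm1 gl/gl and at 19.6 FPKM in wild type, and its gl/gl entry was 0. The libraries also differed in other ways. The Y-linked Eif2s3y had 0.0395, 59.8 and 0.0338 FPKM in CD2-Ostm1 gl/gl, gl/gl and wild type, so sex-linked differences and the gl/gl genotype cannot be told apart. Of the 9 granulocyte markers, 9 were at 1 FPKM or more in gl/gl, and their summed level was 28206 FPKM there, against 407 in CD2-Ostm1 gl/gl and 380 in wild type. Of these markers Mpo went the other way, with 179.9, 9.71 and 152 FPKM in CD2-Ostm1 gl/gl, gl/gl and wild type. The 7 early progenitor markers summed to 51.7 FPKM in gl/gl, with 5 of 7 at 1 FPKM or more, against 372 in CD2-Ostm1 gl/gl and 373 in wild type. Monocyte and macrophage markers summed to 97.0, 1164 and 131 FPKM, and NK cell markers to 80.8, 259 and 129 FPKM, in CD2-Ostm1 gl/gl, gl/gl and wild type. Lyz2 made up most of the monocyte and macrophage sums, with 71.3, 1038 and 91.7 FPKM in the same order. All 7 monocyte and macrophage markers were higher in gl/gl than in wild type. CD2-Ostm1 gl/gl differed from wild type too: mast cell and basophil markers summed to 44.1, 4.30 and 199 FPKM, and dendritic cell markers to 332, 1337 and 992 FPKM, in the 3 libraries. Tpsb2, a mast cell tryptase, was listed at 0 in gl/gl. The T cell markers summed to 720, 906 and 929 FPKM. Of these 9 markers, 5 were higher in gl/gl than in wild type and 4 were lower. Among the lower ones were Cd8a with 33.5, 7.83 and 32.7 FPKM and Cd8b1 with 34.0, 9.57 and 35.5 FPKM. All values below are therefore averages over pools of unlike cell makeup, in which fewer cells of a type and less RNA per cell cannot be told apart. The part of cell makeup in any difference below was not tested.

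The ER folds secreted and membrane proteins with the help of the Hsp70 protein BiP (Hspa5), the Hsp90 protein Grp94 (Hsp90b1), lectin chaperones and disulphide isomerases. When unfolded proteins build up there, 3 membrane sensors, IRE1 (Ern1), PERK (Eif2ak3) and ATF6, start the unfolded protein response, which raises ER chaperones and ER-associated degradation through XBP1, ATF6 and ATF4 and, when prolonged, induces CHOP (Ddit3). The cytosol has its own set of Hsp70 and Hsp90 proteins, part of it induced through HSF1, and the mitochondrial matrix folds imported proteins in the chaperonin of Hspd1 and Hspe1.

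Promoter sequences were searched for the elements by which the stress factors are known to act. RefSeq windows of GRCm38.p6, reaching from 250 bases before to 50 bases after the start site, were found for 34 of the 40 genes and for 16276 genes of the table. The 6 without a window were Hsp90aa1, Hsp90ab1, Hspa8, Manf, Atf6 and Hsf1, so these were not searched for any element. The ER stress element ERSE, spelt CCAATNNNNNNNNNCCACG and searched on both strands, occurred in 8 of the 34 windows and in 22 of all 16276 (0.135%). Because the 40 genes were chosen for known roles in folding and its stress responses, no conclusion is drawn from this share. The 8 genes are Hspa5, Hsp90b1, Calr, Canx, Pdia6, Dnajc3, Creld2 and Syvn1, and Hsp90b1 held 2 matches. Each match is shown on the strand on which it reads as spelt, with the element in capitals and 6 flanking bases on each side, to show that the spacer between the fixed ends differs from gene to gene.
Hspa5: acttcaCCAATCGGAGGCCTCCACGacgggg
Hsp90b1, distal: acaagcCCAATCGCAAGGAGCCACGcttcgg
Hsp90b1, proximal: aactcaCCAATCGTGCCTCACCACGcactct
Calr: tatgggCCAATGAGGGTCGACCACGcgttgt
Canx: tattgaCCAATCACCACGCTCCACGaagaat
Pdia6: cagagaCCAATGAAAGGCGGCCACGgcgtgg
Dnajc3: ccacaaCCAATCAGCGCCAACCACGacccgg
Creld2: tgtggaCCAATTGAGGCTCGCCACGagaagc
Syvn1: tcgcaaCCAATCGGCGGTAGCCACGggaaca

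The whole upstream window of Hspa5 (chr2:34771840-34772089, plus strand) is given because it is the textbook promoter of this response. Capitals mark its 1 exact ERSE, which began 65 bases before the start site.
Hspa5: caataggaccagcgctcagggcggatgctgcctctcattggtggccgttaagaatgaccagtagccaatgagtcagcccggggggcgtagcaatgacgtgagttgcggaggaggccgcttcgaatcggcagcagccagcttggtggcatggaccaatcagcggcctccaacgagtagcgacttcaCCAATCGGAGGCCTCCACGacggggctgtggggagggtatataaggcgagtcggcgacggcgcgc

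The related element ERSE-II, spelt ATTGG and CCACG with 1 base between them, occurred in 2 of the 34 windows (Dnajb11 and Herpud1) and in 0.043% of all. The CARE element bound by ATF4, spelt TGATGNAA, occurred in 4 of the 34 (Herpud1, Trib3, Asns and Chac1) and in 3.46% of all. The UPRE core TGACGTGG occurred in 0 of the 34 and in 0.743% of all. Herpud1 held both ERSE-II and CARE, and its upstream window (chr8:94386179-94386428, plus strand) is shown with both in capitals, the CARE first and on the opposite strand.
Herpud1: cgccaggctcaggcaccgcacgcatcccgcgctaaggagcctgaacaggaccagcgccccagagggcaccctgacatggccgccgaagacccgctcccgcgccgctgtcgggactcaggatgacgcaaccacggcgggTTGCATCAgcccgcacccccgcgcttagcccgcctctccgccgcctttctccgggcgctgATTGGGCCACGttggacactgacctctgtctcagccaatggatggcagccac

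A heat shock element of 3 alternating units (GAA and TTC in turn, starting with either, with 2 bases between units) occurred in 3 of the 34 windows (Hsph1, Hspd1 and Hspe1) and in 0.541% of all. Hspd1 and Hspe1 lie head to head on chromosome 1 with 215 bases between their start sites, so that they share this element. The stretch between the starts (chr1:55087933-55088147, on the strand of Hspe1) is shown with 2 overlapping matches in capitals.
Hspd1 to Hspe1: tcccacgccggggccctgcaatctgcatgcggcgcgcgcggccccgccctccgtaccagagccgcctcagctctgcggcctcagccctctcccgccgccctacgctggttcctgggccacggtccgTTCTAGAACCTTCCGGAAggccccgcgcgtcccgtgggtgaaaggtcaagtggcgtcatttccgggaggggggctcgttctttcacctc

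**Figure D1:**
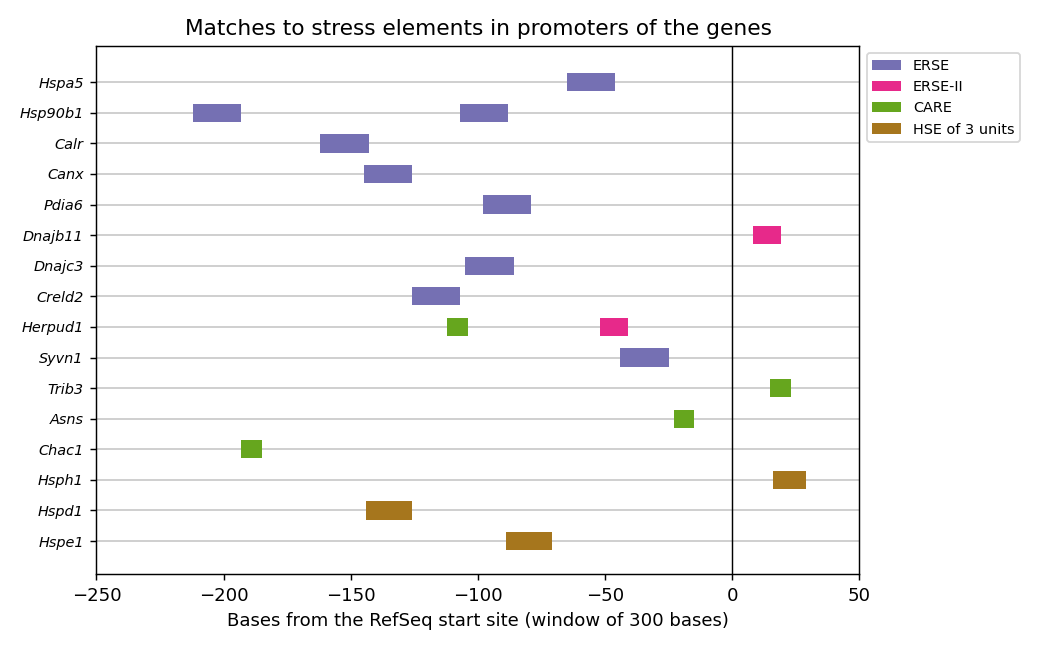
Positions of exact matches to ERSE, ERSE-II, CARE and the heat shock element in promoter windows of the genes that held any. The horizontal axis gives bases from the RefSeq start site, and each coloured bar is 1 match or 2 overlapping ones. The ERSE matches lay before the start site in all 8 genes that held one, while the matches in Dnajb11, Trib3 and Hsph1 lay after it.

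Levels ranged widely. The highest in every library was Hspa8, the constitutive cytosolic Hsp70 protein, with 817, 729 and 1071 FPKM in CD2-Ostm1 gl/gl, gl/gl and wild type. Chac1, a glutathione-degrading enzyme induced by ATF4, had 0.179, 0.460 and 0.0920 FPKM and was the lowest in gl/gl and wild type, while Hspa1a was the lowest in CD2-Ostm1 gl/gl. Trib3, a pseudokinase induced by CHOP, was also below 1 FPKM in all 3 libraries, so 38 of the 40 genes counted as measured (1 FPKM or more in at least 1 library). The highest value of a gene was in CD2-Ostm1 gl/gl for 2 genes, in gl/gl for 15 and in wild type for 23. The lowest was in CD2-Ostm1 gl/gl for 22 genes, in gl/gl for 14 and in wild type for 4. These counts were not made for all genes. Of the 38 measured genes 25 were below wild type in gl/gl, where 6730 of all 12849 measured genes were. In CD2-Ostm1 gl/gl 34 of the 38 were, against 7094 of all.

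**Figure D2:**
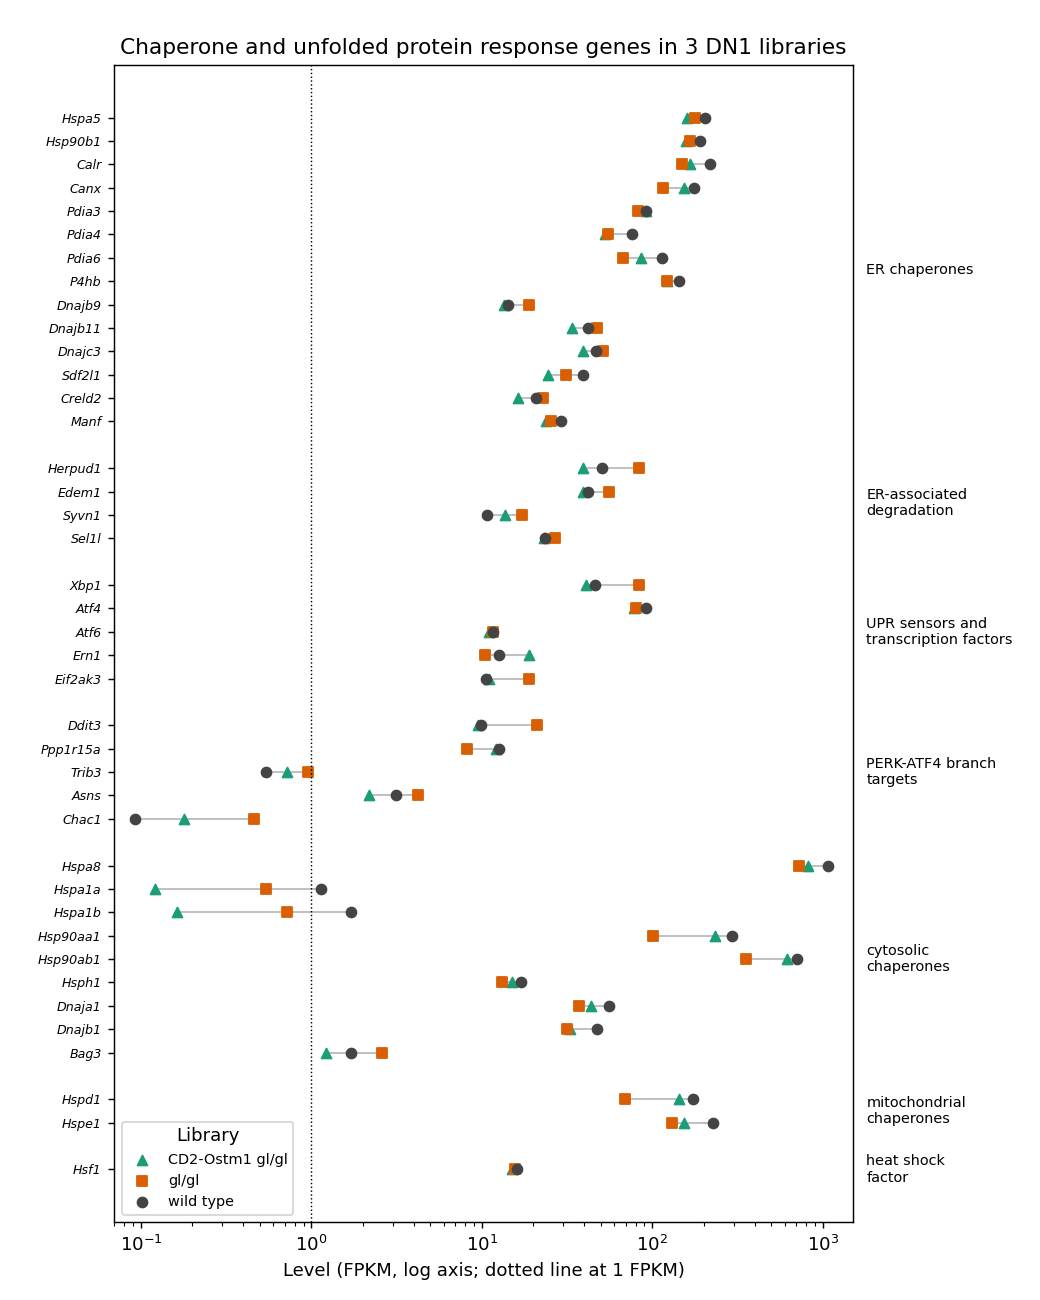
Level of each of the 40 genes in FPKM on a log axis, with 1 point per library (triangle CD2-Ostm1 gl/gl, square gl/gl, circle wild type) and genes ordered by role. In gl/gl, Hsp90aa1, Hsp90ab1 and Hspd1 lie left of both other libraries, whereas Herpud1, Xbp1, Eif2ak3 and Ddit3 lie right of both.

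In gl/gl against wild type, 8 of 9 cytosolic and 2 of 2 mitochondrial chaperones had lower values, as did 10 of 14 ER chaperones, while 4 of 4 genes of ER-associated degradation had higher values. Few of these differences reached 2-fold on the scale of log2(FPKM + 1), which understates differences of low genes. They were those of 1 cytosolic gene, 1 mitochondrial gene, 0 ER chaperones and 0 degradation genes. By plain ratio the low genes Hspa1b and Hspa1a passed 2-fold too, at 42.1% and 47.5% of wild type. Hsp90aa1, the inducible cytosolic Hsp90 protein, stood at 34.3% of its wild type level and Hspd1, the mitochondrial Hsp60 protein, at 40.3%. Ddit3, which encodes the transcription factor CHOP, was at 2.14 times its wild type level. On the log2(FPKM + 1) scale, 1 of the 38 measured genes was at least 2-fold higher (Ddit3), where 8.16% of all 12849 measured genes were. On the same scale 2 were at least 2-fold lower (Hsp90aa1 and Hspd1), where 6.15% of all were. The share past 2-fold was thus below the background for higher genes and near it for lower ones. The median difference was -0.20 over the 38 genes and -0.03 over all measured genes.

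In CD2-Ostm1 gl/gl against wild type, most genes were slightly lower. The medians of the cytosolic and mitochondrial classes lay nearer to 0 than for gl/gl against wild type, and that of the ER chaperones lay further from it. On the log2(FPKM + 1) scale 0 of the 38 genes were at least 2-fold higher, where 1.34% of all measured genes were. By the same measure 1 was at least 2-fold lower (Hspa1b), where 1.67% of all were. By plain ratio the low genes Hspa1b and Hspa1a stood at 9.52% and 10.7% of wild type. Differences were below 0 for 34 of the 38 genes, with a median of -0.27 against -0.04 over all measured genes. In CD2-Ostm1 gl/gl against gl/gl, on the same scale, 2 genes were at least 2-fold higher (Hsp90aa1 and Hspd1), where 6.47% of all were. There 3 were at least 2-fold lower (Herpud1, Xbp1 and Ddit3), where 9.82% of all were. By plain ratio the low genes Hspa1a, Hspa1b and Bag3 passed 2-fold too, at 22.4%, 22.6% and 47.0% of gl/gl. These comparisons share libraries in pairs, so their values are not independent of each other. Shares past 2-fold lay near the background here too.

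**Figure D3:**
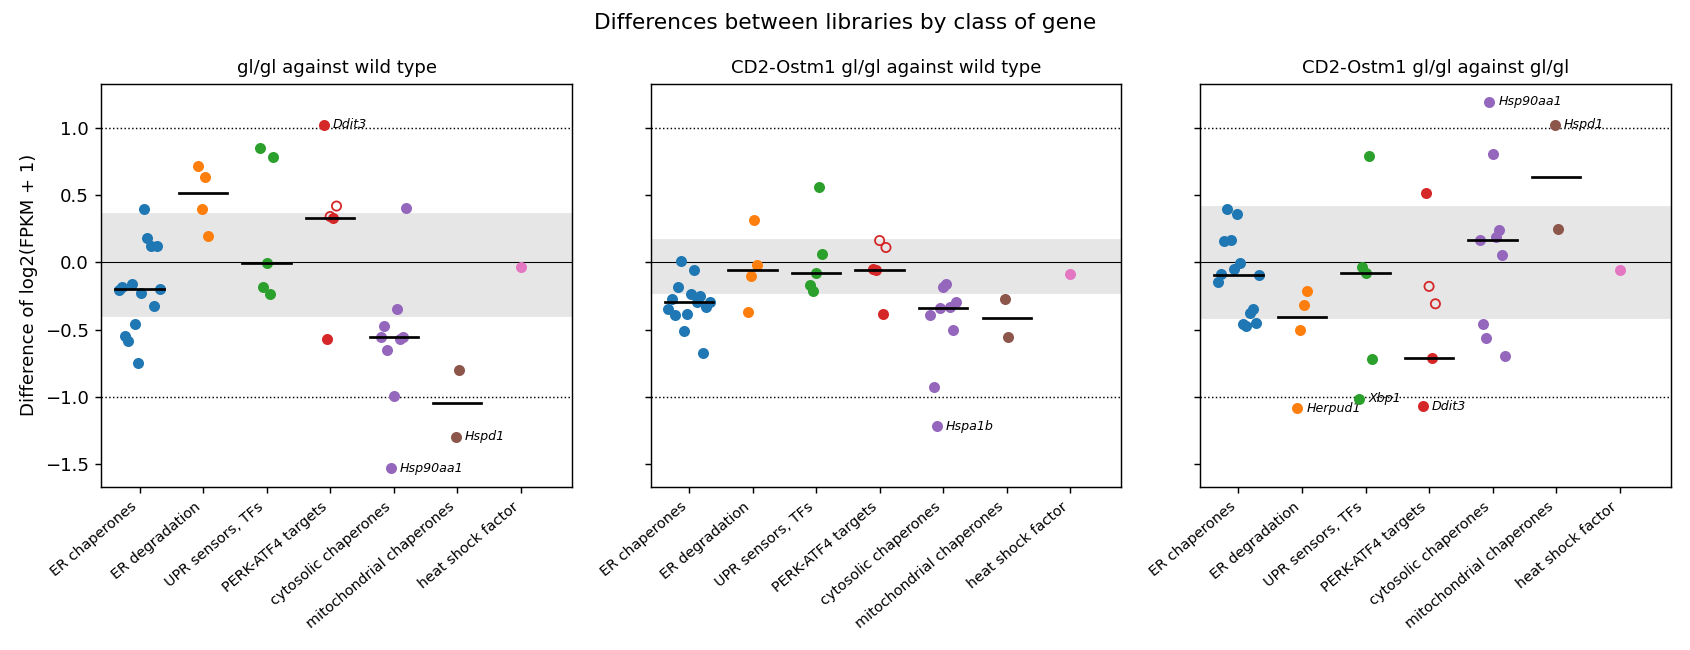
Difference of log2(FPKM + 1) for each gene, by class, in 3 comparisons of 1 library each. Points are genes (open points stayed below 1 FPKM in all libraries), black bars are class medians over measured genes, the grey band holds the middle 50% of all measured genes, and dotted lines mark 2-fold. For gl/gl against wild type, the medians of the cytosolic class (-0.56) and the mitochondrial class (-1.05) lie below the band. That of ER-associated degradation (0.51) lies above it. For CD2-Ostm1 gl/gl against wild type the band is narrower (-0.23 to 0.17). There the medians of the ER (-0.29), cytosolic (-0.34) and mitochondrial (-0.41) chaperones all lie below it.

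Among the ER chaperones, Calr was the most abundant in CD2-Ostm1 gl/gl and wild type, and Hspa5 in gl/gl. Hspa5, the ER Hsp70 protein and a standard marker of the response, had 161, 178 and 205 FPKM in CD2-Ostm1 gl/gl, gl/gl and wild type. Hsp90b1, the ER Hsp90 protein, had 157, 167 and 190 FPKM. Both were thus highest in wild type and lowest in CD2-Ostm1 gl/gl, and the ratio of Hspa5 to Hsp90b1 was 1.02, 1.06 and 1.07 in the same order. The lectin chaperones of glycoproteins were lower in gl/gl than in both other libraries. Calr, soluble calreticulin, had 167, 150 and 219 FPKM. Canx, membrane-bound calnexin, had 153, 116 and 175 FPKM in CD2-Ostm1 gl/gl, gl/gl and wild type.

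The disulphide isomerases varied by member. Pdia6 had 86.4, 67.2 and 113 FPKM in CD2-Ostm1 gl/gl, gl/gl and wild type, and its log2 difference of -0.75 for gl/gl against wild type was the lowest of the 14 ER chaperones. Pdia3, which works with the lectin chaperones, had 92.5, 82.2 and 92.0 FPKM. P4hb, the archetypal isomerase, had 122, 123 and 144 FPKM. Pdia4 was lower in both gl/gl libraries, with 52.9 FPKM in CD2-Ostm1 gl/gl and 54.9 in gl/gl against 75.7 in wild type.

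The smaller helpers of BiP went both ways in gl/gl. Dnajb9, a J-domain co-chaperone induced through XBP1, had 13.5, 19.0 and 14.2 FPKM in CD2-Ostm1 gl/gl, gl/gl and wild type, and its log2 difference of 0.40 for gl/gl against wild type was the highest of the ER chaperones. The co-chaperones Dnajb11 (33.9, 47.5 and 41.8 FPKM) and Dnajc3 (39.1, 51.1 and 46.8 FPKM) were also highest in gl/gl, as was Creld2, with 16.4, 22.7 and 20.8 FPKM. Sdf2l1, a partner of the ER J-domain proteins, had 24.3, 31.2 and 39.3 FPKM, and Manf, a secreted ER-resident factor, had 23.7, 25.4 and 29.2 FPKM. Both were therefore highest in wild type. None of the 14 ER chaperones reached 2-fold in any comparison.

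As a class, the 14 ER chaperones had median log2 differences of -0.20 for gl/gl against wild type, -0.29 for CD2-Ostm1 gl/gl against wild type and -0.09 for CD2-Ostm1 gl/gl against gl/gl. The numbers of genes below 0 were 10, 13 and 10 of 14 in these comparisons. Carrying an ERSE or ERSE-II went with no common direction in gl/gl. Of the 17 ER chaperone and degradation genes with a promoter window, the 10 with either element ranged from -0.75 to 0.72 for gl/gl against wild type, with 5 of 10 above 0. The 7 without ranged from -0.46 to 0.40, with 3 of 7 above 0.

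The genes of ER-associated degradation, which send misfolded proteins back to the cytosol for breakdown, were all 4 highest in gl/gl. Herpud1 (chr8:94386500-94395358, mm10, plus strand), a membrane organiser of the complex, had 39.0, 84.0 and 50.7 FPKM in CD2-Ostm1 gl/gl, gl/gl and wild type. Its log2 difference was 0.72 for gl/gl against wild type and -1.09 for CD2-Ostm1 gl/gl against gl/gl, past 2-fold in the second comparison only. Syvn1, the ubiquitin ligase Hrd1, had 13.7, 17.3 and 10.8 FPKM. Edem1, a mannosidase-like selector of glycoproteins, had 39.1, 55.6 and 42.1 FPKM. Sel1l, the adaptor of Hrd1, had the smallest spread, with 23.1, 26.9 and 23.4 FPKM. The class median for gl/gl against wild type was 0.51 (range 0.19 to 0.72), and for CD2-Ostm1 gl/gl against wild type it was -0.06.

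Of the sensors and factors, Xbp1 and Eif2ak3 were higher in gl/gl than in both other libraries. Xbp1 (chr11:5520641-5525993, plus strand), whose mRNA is spliced by IRE1 into an active form, had 40.8, 83.5 and 45.9 FPKM in CD2-Ostm1 gl/gl, gl/gl and wild type. The log2 difference was 0.85 for gl/gl against wild type, exceeded by 10.4% of all measured genes, and -1.02 for CD2-Ostm1 gl/gl against gl/gl. These are values per gene and say nothing of the spliced form. Eif2ak3, the kinase PERK, had 11.05, 18.8 and 10.5 FPKM, a log2 difference of 0.78 for gl/gl against wild type.

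Ern1, the sensor IRE1, was highest with the transgene, as was Pdia3 by a much smaller margin. It had 18.9 FPKM in CD2-Ostm1 gl/gl, 10.5 in gl/gl and 12.5 in wild type, a log2 difference of 0.56 for CD2-Ostm1 gl/gl against wild type, exceeded by 5.80% of all measured genes. Atf6, the sensor that is cut in the Golgi, had 10.98, 11.6 and 11.7 FPKM and was nearly equal. Atf4, whose protein is set mainly by translation, had 78.5, 80.2 and 91.3 FPKM.

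Targets of the PERK and ATF4 branch did not share a direction. Ddit3 had 9.56, 21.2 and 9.91 FPKM in CD2-Ostm1 gl/gl, gl/gl and wild type, so that the gl/gl library alone was high, with log2 differences of 1.02 for gl/gl against wild type and -1.07 for CD2-Ostm1 gl/gl against gl/gl. Ddit3 was just past the 2-fold line, and Hsp90ab1, at -0.99, lay just short of it. In the GENCODE annotation the exons of Ddit3 overlap those of other genes, among them the opposite-strand gene Mars, by up to 68 bases. Without a stated strand setting, reads of the overlap cannot be assigned. The deposited values give Ddit3 and Mars 1 joint locus (chr10:127290793-127311786, mm10), while each has a value of its own. Mars itself had 27.3, 20.5 and 30.7 FPKM, lowest in gl/gl. Ppp1r15a (Gadd34), the phosphatase subunit that reverses the block of translation, went the other way from Ddit3, with 12.1, 8.15 and 12.6 FPKM. Asns, asparagine synthetase, had 2.18, 4.20 and 3.14 FPKM. Trib3 had 0.723, 0.950 and 0.540 FPKM. Chac1 was at about 7.23 fragments in CD2-Ostm1 gl/gl, 19.6 in gl/gl and 6.50 in wild type as roughly estimated from small table entries, too few to compare closely.

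Beside the degradation genes, Xbp1 and Ddit3, some markers of other cell types were higher in gl/gl too. The 6 plasma cell markers, cells in which Xbp1 drives secretion, summed to 119, 304 and 224 FPKM in CD2-Ostm1 gl/gl, gl/gl and wild type. None of them was at 0, and Igj, the joining chain of antibodies, had 77.7, 209 and 145 FPKM, whereas Sdc1 was highest in wild type with 6.72, 21.8 and 41.7 FPKM. The 6 B cell markers summed to 83.2, 179 and 49.4 FPKM. The 10 immediate-early genes, which respond to cell handling, summed to 407, 495 and 417 FPKM but were mixed in gl/gl against wild type, with 6 above 0 and 4 below. Among them Dusp1 was past 2-fold higher (1.28), and Jun (-1.73) and Ier3 (-1.53) were past 2-fold lower. The granulocyte, monocyte and NK cell sums given at the start were higher in gl/gl as well. Their part in these results was not tested.

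Of the 9 cytosolic chaperones, 8 were below their wild type level in gl/gl, 1 of them past 2-fold on the log2(FPKM + 1) scale. Levels within the class were unequal: Hspa8 and Hsp90ab1 had the highest values of the 40 genes in every library, while Hspa1a, Hspa1b and Bag3 were among the low ones. Hspa8 stood in gl/gl at 68.1% of wild type, and in CD2-Ostm1 gl/gl at 76.3%. Hsp90ab1, the constitutive Hsp90 protein, had 617, 352 and 702 FPKM in CD2-Ostm1 gl/gl, gl/gl and wild type, so that gl/gl was at 50.2% of wild type and CD2-Ostm1 gl/gl at 87.9%. Hsp90aa1 (chr12:110691036-110696395, minus strand) had 232, 101 and 294 FPKM, a log2 difference of -1.53 for gl/gl against wild type, and 2.17% of all measured genes were lower still. The Hsp90 genes were unequally lower: the ratio of Hsp90ab1 to Hsp90aa1 was 2.65, 3.49 and 2.38 in the 3 libraries. The ER form was not lower to this degree, since the ratio of Hsp90aa1 to Hsp90b1 was 1.48 in CD2-Ostm1 gl/gl, 0.604 in gl/gl and 1.55 in wild type. These ratios within a library do not depend on how libraries were scaled.

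The J-domain proteins and the exchange factor Hsph1 were also below wild type in both gl/gl libraries. Dnaja1 had 43.9, 37.0 and 55.5 FPKM in CD2-Ostm1 gl/gl, gl/gl and wild type. Its exons overlap those of other genes, among them the opposite-strand gene Smu1, by up to 608 bases. Dnajb1, the Hsp40 protein induced by heat, was nearly equal in CD2-Ostm1 gl/gl (33.1 FPKM) and gl/gl (31.7 FPKM), against 47.2 FPKM in wild type. Hsph1 (Hsp110), an exchange factor of Hsp70, had 15.1, 13.1 and 17.0 FPKM. Bag3, a co-chaperone of Hsp70 in selective autophagy, was the exception, with 1.21, 2.58 and 1.71 FPKM.

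The heat-inducible Hsp70 genes had low levels. Hspa1a had 0.121, 0.539 and 1.14 FPKM in CD2-Ostm1 gl/gl, gl/gl and wild type, and Hspa1b had 0.162, 0.717 and 1.70 FPKM. The order was the same for both, with the transgenic library lowest. These genes are near-identical neighbours on chromosome 17, and reads could have been split between them, which makes each value uncertain. By the rough estimate, Hspa1b rested on about 11.9, 55.4 and 218 fragments, and its log2 difference for CD2-Ostm1 gl/gl against wild type was -1.22. Hsf1, the factor that induces them, hardly differed, with 15.1, 15.7 and 16.1 FPKM.

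As a class, the 9 cytosolic chaperones had median log2 differences of -0.56 for gl/gl against wild type (8 of 9 below 0), -0.34 for CD2-Ostm1 gl/gl against wild type (9 of 9 below 0) and 0.16 for CD2-Ostm1 gl/gl against gl/gl (3 of 9 below 0). All measured genes had medians of -0.03, -0.04 and 0.02 in the same comparisons.

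The mitochondrial chaperonin genes were lower in gl/gl to unequal degrees. Hspd1 (chr1:55077834-55087932, minus strand), which forms the barrel, had 143, 69.5 and 172 FPKM in CD2-Ostm1 gl/gl, gl/gl and wild type. Hspe1 (chr1:55088148-55091317, plus strand), its lid, had 154, 130 and 227 FPKM. The log2 difference for gl/gl against wild type was -1.30 for Hspd1 and -0.80 for Hspe1, although both lie beside the promoter shown above. The ratio of Hspe1 to Hspd1 was 1.08, 1.87 and 1.32 in the 3 libraries. Their exons overlap by 112 bases in the GENCODE annotation, and that annotation names 5 pseudogenes of Hspd1 and 6 of Hspe1, so reads may be split between copies.

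Set side by side, the compartments differed in their balance. The 14 ER chaperones summed to 1143 FPKM in CD2-Ostm1 gl/gl, 1134 in gl/gl and 1406 in wild type. The 9 cytosolic chaperones summed to 1760, 1268 and 2191 FPKM, and Hspa8, Hsp90ab1 and Hsp90aa1 made up 94.7%, 93.2% and 94.3% of these sums. The mitochondrial genes summed to 297, 199 and 400 FPKM. The cytosolic sum was therefore 1.54 times the ER sum in CD2-Ostm1 gl/gl, 1.12 times in gl/gl and 1.56 times in wild type. The mitochondrial sum was 0.260, 0.176 and 0.284 of the ER sum. The 4 degradation genes chosen here went the opposite way, at 0.101, 0.162 and 0.0903 of the ER chaperone sum. In each of these 3 ratios the gl/gl library stood apart, and CD2-Ostm1 gl/gl lay nearer to wild type. Of the 4 degradation genes, Herpud1 differed most between gl/gl and wild type. Vcp, which also acts in this process but is outside the sum, was lower in gl/gl, with 155, 112 and 176 FPKM. It belongs to a list of 24 other ER genes, of which 16 were above 0 and 8 below for gl/gl against wild type.

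**Figure D4:**
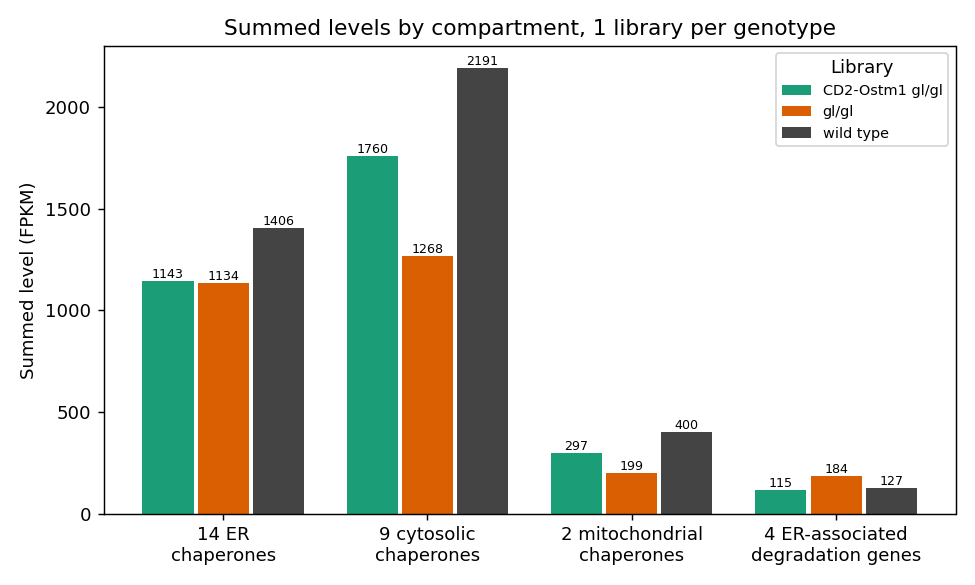
Summed level in FPKM of the genes of each compartment, with 1 bar per library and no error bars because each genotype has 1 library. The gl/gl bar is lowest for cytosolic (1268) and mitochondrial (199) chaperones and highest for the 4 chosen genes of ER-associated degradation (184).

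Other genes of the same pathways were taken from 6 lists that do not overlap with the 40, and are given first for gl/gl against wild type. The background for these lists is the share of all measured genes past 2-fold in that comparison, 8.16% upward and 6.15% downward. Of 24 other genes of ER folding, translocation and quality control, 0 were 2-fold higher and 0 lower, with a median of 0.06. The largest differences were those of Ero1lb, an ER oxidase (0.80), Vcp, the extraction ATPase of ER-associated degradation (-0.65), and Txndc5, a disulphide isomerase (0.62). Of 12 other transducers and proteases of the response 0 passed 2-fold in either direction (median 0.04), led by Creb3l2, an ER-bound transcription factor, at 0.68, and followed by the translation factor subunit Eif2s1 (-0.62) and the kinase Eif2ak4 (-0.60).

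The chaperonin TRiC, which folds actin and tubulin in the cytosol, was lower for all 8 subunits, with a median of -0.86 and 2 subunits past 2-fold, Cct6a at -1.23 and Cct3 at -1.08, followed by Tcp1 at -0.91. Cct6a had 141, 67.1 and 159 FPKM in CD2-Ostm1 gl/gl, gl/gl and wild type. Of 11 other mitochondrial chaperones and proteases 9 were below 0 and 0 past 2-fold (median -0.39). Hspa9, the mitochondrial Hsp70 protein, came closest, with 101, 57.8 and 116 FPKM and a log2 difference of -0.99, followed by Trap1, the mitochondrial Hsp90 protein, at -0.78 and the J-domain protein Dnaja3 at -0.54.

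Of 21 other measured cytosolic chaperones and co-chaperones 1 was 2-fold higher and 1 lower (median -0.18). The lower gene was Fkbp4, an Hsp90 co-chaperone, with 83.8, 44.4 and 98.7 FPKM in CD2-Ostm1 gl/gl, gl/gl and wild type. The higher one was the small heat shock gene Hspb1, with only 0.325, 2.97 and 0.860 FPKM, and the small heat shock gene Hspb8, at 0.98, lay just short of 2-fold. Genes of ATF4 and the amino acid response went furthest in both directions: 3 of 14 measured were higher and 1 lower. A single gene past 2-fold in lists of these sizes is near the background given above for gl/gl against wild type. The 3 of 14 higher genes are a share above the 8.16% of all measured genes, for which no test was run. Cebpb, also a factor of myeloid cells, had 8.82, 57.2 and 12.0 FPKM, whereas Phgdh, the first enzyme of serine synthesis, had 129, 38.1 and 131 FPKM. Nupr1, a stress-induced chromatin protein, had a log2 difference of 1.85 for gl/gl against wild type.

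In CD2-Ostm1 gl/gl against wild type, none of the measured genes in these 6 lists passed 2-fold, where 1.34% of all measured genes were higher and 1.67% lower, so few would be met at that background. The medians ranged from -0.29 for TRiC to 0.02 for the other transducers.

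**Figure D5:**
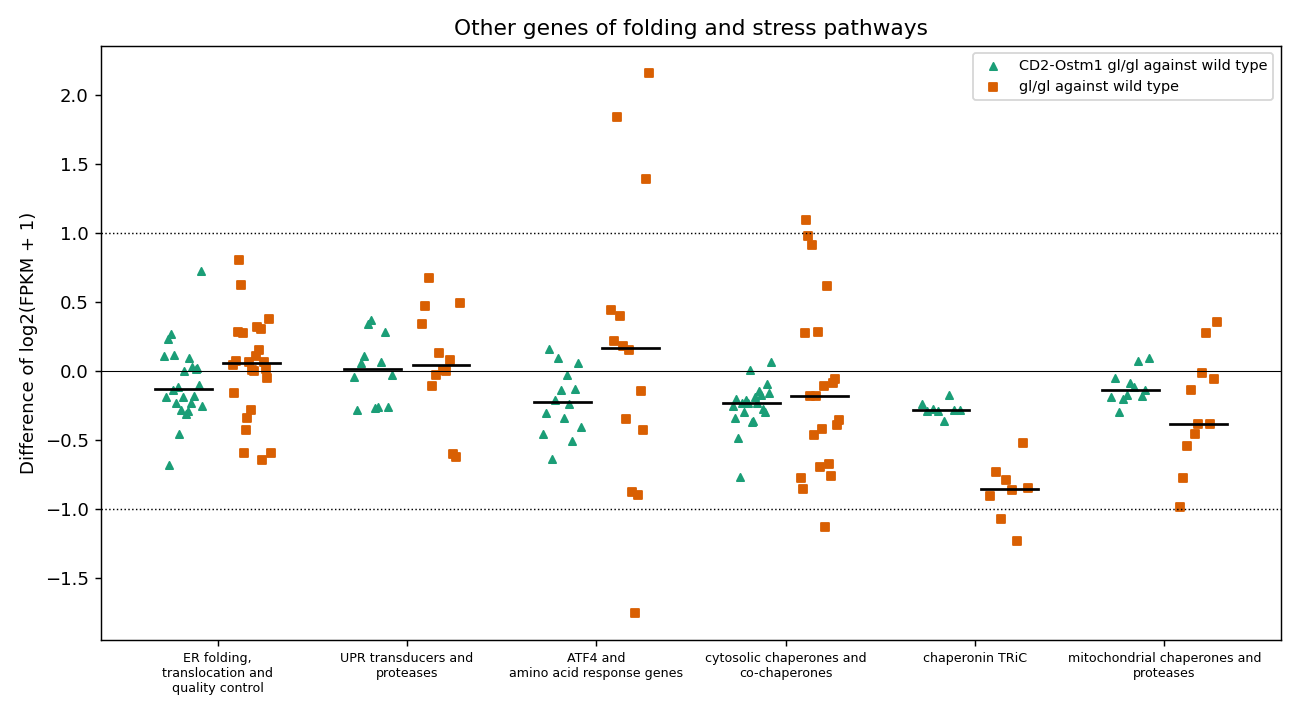
Difference of log2(FPKM + 1) from wild type for measured genes of 6 further lists, with 1 point per gene (triangles CD2-Ostm1 gl/gl, squares gl/gl), black bars at list medians and dotted lines at 2-fold. All 8 TRiC subunits lie below 0 for both, with medians of -0.29 for CD2-Ostm1 gl/gl and -0.86 for gl/gl.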

How the data were processed

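Per the labels, RNA of sorted DN1 cells was made into 1 library per genotype with an Illumina TruSeq kit. Per the submitters' processing notes, TopHat2 2.0.10, Cuffdiff 2.2.1 and mm10 were used. Annotation, strand setting and library scaling: not given in the sources used here. As the unit of the deposited values FPKM was taken, since Cuffdiff writes that unit and the header names none.

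Of 23352 lines, 1 was empty, 3 held a cell that was no number and 23348 were used. Differences are of log2(FPKM + 1). A gene counted as measured at 1 FPKM in at least 1 library (12849 genes), and as higher or lower at 2-fold. All 40 genes are named, and of each further list up to 3 with the greatest difference between gl/gl and wild type. Members and lists were chosen with earlier results of these data known. Igj, Sdc1, Mpo, Lyz2, Cd8a, Cd8b1, Tpsb2, Dusp1, Jun, Ier3, Mars and Smu1 were named after their values were seen.

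No read counts were used. The lowest values of genes with 1 transcript put 1 fragment on 1 kb at about 0.0356 FPKM in CD2-Ostm1 gl/gl, 0.0336 in gl/gl and 0.0204 in wild type, assuming fragments of 200 bases, so the wild type library was deepest. These estimates cover counting error only. Start sites for promoters were those nearest to the deposited position. Calculations used Python 3.11.15, pandas 2.3.3, numpy 2.4.6 and scipy 1.17.1, and the rule that counts genes past 2-fold was checked on simulated tables.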

Additional observations from a re-analysis of the deposited data

How the results depend on the processing

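With 1 library per genotype, no library could be left out. No paired analysis was possible because each genotype has 1 sample. The class medians of the ER, cytosolic and mitochondrial chaperones kept their sign and moved by less than 0.1 (log2) under pseudocounts of 0.1 and 5, no filter, a filter of 5 FPKM, and rescaling either to the median gene ratio or to an equal upper quartile. The counts past 2-fold are small and moved more. For gl/gl against wild type, 1 gene higher became 0 with a pseudocount of 5, 5 at a threshold of 1.5-fold and 0 at 4-fold, and 2 lower became 3 with a pseudocount of 0.1, 7 at 1.5-fold and 0 at 4-fold. For CD2-Ostm1 gl/gl against wild type, 1 lower became 2 with a pseudocount of 0.1, 0 with a pseudocount of 5 or a filter of 5 FPKM, 3 at 1.5-fold and 0 at 4-fold. For CD2-Ostm1 gl/gl against gl/gl, 2 higher became 1 with a pseudocount of 5 or after rescaling to the median gene ratio, 4 at 1.5-fold and 0 at 4-fold, and 3 lower became 6 with a pseudocount of 0.1, 1 with a pseudocount of 5, 2 after rescaling to an equal upper quartile, 6 at 1.5-fold and 0 at 4-fold. Without genes that overlap exons of others or have a near-identical copy, a choice made after seeing the data, the numbers were 0 higher and 1 lower for gl/gl against wild type, 0 lower for CD2-Ostm1 gl/gl against wild type, and 1 higher and 2 lower for CD2-Ostm1 gl/gl against gl/gl. Rescaling moved the median of all genes by at most 0.06 (log2). For gl/gl against wild type, 68.4% of the measured genes described here and 67.5% of all measured genes lay within 1.5-fold. These shares were 92.1% and 90.5% for CD2-Ostm1 gl/gl against wild type, and 73.7% and 64.4% for CD2-Ostm1 gl/gl against gl/gl. Shares of all genes were not counted at the other changed settings.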
